A study of Mus musculus with 12 samples.

Results

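The genes described here are 37 genes of the oligodendrocyte lineage and of myelin, measured by RNA sequencing in the medial prefrontal cortex of mice. They were selected by gene name to span precursor, differentiating and myelinating stages, and all 37 were found among the 55678 gene names in the deposited table. All 37 also reached 1 TPM in at least 3 libraries, the filter that left 16423 genes for testing. TPM is a transcript abundance corrected for length and scaled to the same total in each library, so levels of different genes can be set side by side. The 12 libraries formed 4 groups of 3 that crossed 2 treatments with 2 inbred strains. One strain was C57BL/6JmsSlc, called B6 here, and the other BALB/cCrSlc, called BALB/c. Mice in the chronic restraint stress (CRS) groups were held in restrainers for 6 h a day over 21 days, and control mice were handled without restraint. All mice were 9 to 10 weeks old and had been through behavioural tests before the cortex was sampled with a 1.5 mm punch. The labels give no sex, litter or sequencing batch and do not state that each library came from a separate mouse, so p-values measure only the spread between these libraries. Libraries are called below by group and by the number in their label.

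Oligodendrocytes are the glial cells that wrap axons of the central nervous system in myelin, a stack of lipid-rich membrane. They arise from dividing precursor cells that carry the growth factor receptor PDGFRA and the proteoglycan NG2, pass through a short differentiating stage, and then switch on the genes for myelin proteins and lipids under transcription factors that include SOX10, OLIG2 and MYRF. In the frontal cortex myelin is sparse in the upper layers and dense in the underlying white matter, and it continues to be laid down in young adulthood.

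The lineage was represented at every stage. Every member was above 0 in all 12 libraries. Averaged over the libraries, the most abundant was Mbp at 1797 TPM, followed by Mobp at 504 TPM and Plekhb1 at 236 TPM, and the least abundant was Itpr2 at 3.20 TPM. Schwann cells, which make the myelin of peripheral nerve, were checked with 6 marker genes. At least 5 of the 6 were under 1 TPM in each library, their summed level ran from 0.598 to 2.55 TPM, and none passed the filter. Each library had 14805 to 15542 genes at 1 TPM or more, and mitochondrial transcripts took 17.4% to 23.9% of TPM. The reads behind a value are unknown, since depth is lost in TPM. The 18S ribosomal RNA gene held 3.97% of TPM in BALB/c CRS 12 and at most 0.169% elsewhere, so the calls that were lost without that library are named.

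Most of these genes were lower in BALB/c than in B6, and the myelin genes had the widest differences. With both treatments averaged, 33 of 37 members passed the test, all of them lower in BALB/c (limma on log2(TPM + 1), Benjamini-Hochberg adjusted p under 0.05 over 16423 genes). Of all tested genes, 14.3% were called lower in BALB/c and 18.4% in either direction. The median log2 difference was -1.42 over the members and -0.08 over all tested genes. Most members varied together across the libraries, so these and later counts of members are not counts of independent results. By class, the calls covered 1 of 3 precursor genes, 3 of 4 genes of differentiating cells, 5 of 5 transcription factors, 12 of 12 myelin and membrane proteins, 5 of 6 lipid and metabolic enzymes, and 7 of 7 other genes of mature cells. Without BALB/c CRS 12 the count was 24, all among the 33, and the calls lost were Enpp6, Nkx6-2, Ermn, Gjb1, Aspa, Car2, Gpr37, Tmem125 and Lpar1. The same 9 calls were lost without BALB/c control 10, and 7 or 8 of them without B6 control 2, B6 control 3, B6 CRS 12, B6 CRS 13 or BALB/c control 5. In bulk tissue, fewer oligodendrocytes and less of these RNAs per oligodendrocyte cannot be told apart.

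Markers of another brain region moved with this difference. The 8 listed markers of striatal neurons were all called lower in BALB/c, with a median log2 difference of -2.38. Their summed level was 205 to 2769 TPM in B6 controls, 867 to 2265 TPM under CRS in B6, 110 to 365 TPM in BALB/c controls and 131 to 178 TPM under CRS in BALB/c. With their mean log2 level as a covariate, 0 of 37 members were called for the averaged strain difference, against 3.23% of all genes, and the members' median was -0.32. With the level of 8 excitatory neuron markers as the covariate, 0 members were called as well, against 5.27% of all genes, and the median was -0.67. Under the striatal covariate the log2 difference of Mbp was -0.60 (SE 0.53, adjusted p = 0.591, limma), and under the excitatory covariate it was -1.21 (SE 0.54, adjusted p = 0.219, limma). The striatal list itself differed between the strains, so with 12 libraries the strain and the striatal level cannot be told apart. All 8 excitatory markers had positive differences, 3 of them called, so the same limit holds for that covariate.

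**Figure D1:**
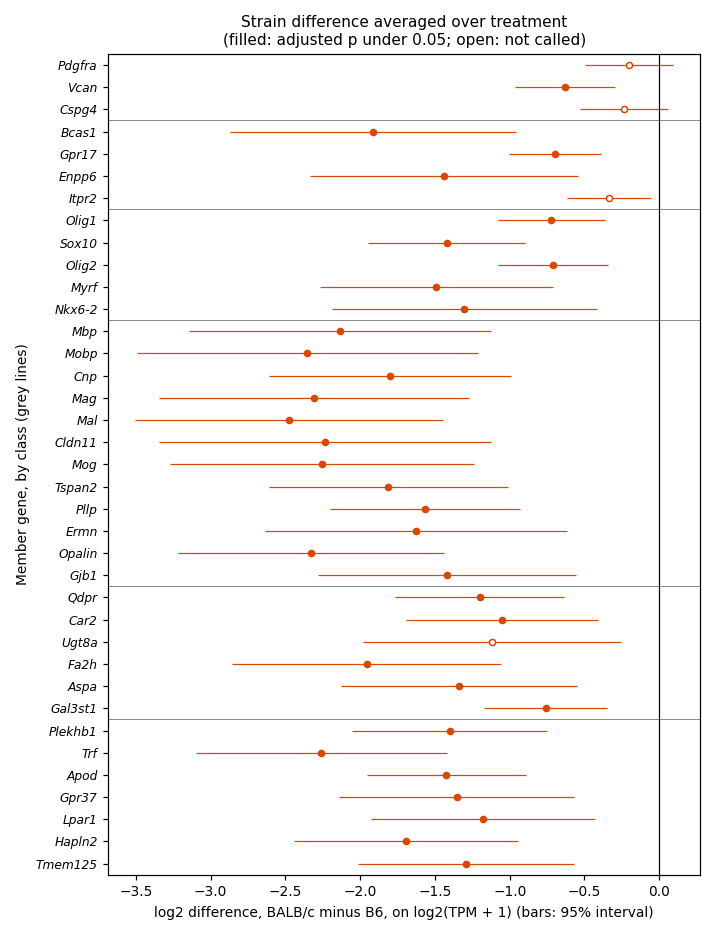
Strain difference of each of the 37 genes, BALB/c minus B6 with both treatments averaged, on the log2(TPM + 1) scale, with 95% intervals from limma and grey lines between classes. Every point lies left of 0, from -2.48 for Mal to -0.20 for Pdgfra, and the 4 open points are the members that were not called.

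The members' promoters were examined because these genes moved together across libraries. RefSeq promoter entries (build GRCm38.p6) were matched for 28 of the 37 genes. The 9 without an entry were Gpr17, Bcas1, Sox10, Olig1, Myrf, Mbp, Fa2h, Car2 and Trf, so the shares below leave them out. In the 250 bases before the first listed start site of each gene, on both strands, words bound by SOX proteins (AACAAT or ACAAAG) were present in 10 of the 28 (35.7%), against 24.2% of 27025 promoters. Words bound by MYRF (CTGGCAC or CTGGTAC) were present in 5 (17.9%, against 5.86%), and the E-box words used by OLIG proteins (CAGCTG or CATCTG) in 10 (35.7%, against 25.3%). With a gene counted where any of its listed starts held the word, the SOX words were present in 13 of the 28 (46.4%, against 26.8% of all genes), the MYRF words in 5 (17.9%, against 6.79%) and the E-box words in 11 (39.3%, against 28.2%). No match overlapped another. The 5 sequences below show the range: a myelin gene with SOX words only (Mobp, chr9:120149492-120149741, plus strand), one with a SOX and a MYRF word (Cnp, chr11:100574689-100574938, plus strand), one with a MYRF word only (Mog, chr17:37023399-37023648, minus strand), a gene with all 3 kinds (Hapln2, chr3:88027512-88027761, minus strand), and a precursor gene with none (Cspg4, chr9:56864854-56865103, plus strand). Capitals mark the matches, and each line reads 5′ to 3′ on the gene's strand up to the base before its start.
Mobp: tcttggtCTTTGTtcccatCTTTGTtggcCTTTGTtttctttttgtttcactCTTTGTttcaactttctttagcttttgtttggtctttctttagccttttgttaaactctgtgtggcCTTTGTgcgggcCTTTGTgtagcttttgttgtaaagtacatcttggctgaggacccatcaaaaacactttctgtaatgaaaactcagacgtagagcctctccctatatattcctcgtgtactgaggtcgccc
Cnp: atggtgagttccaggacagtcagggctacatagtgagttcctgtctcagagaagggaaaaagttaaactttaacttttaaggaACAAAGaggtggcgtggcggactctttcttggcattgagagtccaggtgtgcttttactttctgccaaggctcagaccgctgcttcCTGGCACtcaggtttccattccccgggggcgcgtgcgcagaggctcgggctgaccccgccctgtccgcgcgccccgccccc
Mog: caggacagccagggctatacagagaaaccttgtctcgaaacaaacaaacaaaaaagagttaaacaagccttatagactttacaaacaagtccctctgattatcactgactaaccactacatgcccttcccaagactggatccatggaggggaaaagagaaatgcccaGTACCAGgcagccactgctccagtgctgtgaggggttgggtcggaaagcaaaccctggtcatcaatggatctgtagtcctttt
Hapln2: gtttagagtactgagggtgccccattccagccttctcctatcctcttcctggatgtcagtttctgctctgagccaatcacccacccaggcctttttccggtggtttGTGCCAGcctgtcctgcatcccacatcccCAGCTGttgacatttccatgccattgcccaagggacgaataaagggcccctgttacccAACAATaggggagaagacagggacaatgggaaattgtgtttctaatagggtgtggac
Cspg4: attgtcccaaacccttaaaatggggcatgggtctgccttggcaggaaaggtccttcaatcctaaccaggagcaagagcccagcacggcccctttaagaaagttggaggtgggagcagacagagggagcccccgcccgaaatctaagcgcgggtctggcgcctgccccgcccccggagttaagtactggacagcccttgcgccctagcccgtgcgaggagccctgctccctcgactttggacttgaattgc
The Mobp window held 6 copies of CTTTGT, the reverse complement of ACAAAG, and a GC content of 40.8%, against 60.4% in the Cspg4 window. In Hapln2 the MYRF word began 144 bases, the E-box 115 bases and the SOX word 57 bases before the start. The printed sequences do not set the classes apart. The windows of the myelin genes Mal, Cldn11, Ermn and Pllp held none of these words. Among precursor genes, Vcan held none either, whereas Pdgfra held an E-box. These matches describe the letters in a window and show no binding.

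Of the 3 precursor genes, Vcan was the only one called. Pdgfra (chr5:75151322-75198206), the growth factor receptor that defines precursors, was at 19.6, 15.9 and 13.0 TPM in the B6 controls 2, 3 and 9, and at 13.5, 14.9 and 13.4 TPM in B6 CRS 12, 13 and 14. The BALB/c libraries were at 13.1, 11.4 and 13.8 TPM in controls 5, 9 and 10 and at 9.11, 14.7 and 15.8 TPM in CRS 12, 13 and 15. The 4 groups overlapped, with B6 control 2 highest and BALB/c CRS 12 lowest. Its averaged log2 difference between strains was -0.20 (95% interval -0.50 to 0.09, adjusted p = 0.337, limma). Vcan, a matrix proteoglycan made by precursors, was at 6.97, 7.03 and 3.54 TPM in the B6 controls and 6.27, 6.63 and 7.75 TPM under CRS in B6. In BALB/c it was at 3.37, 3.51 and 3.61 TPM in controls and 3.01, 3.81 and 4.82 TPM under CRS. B6 control 9 lay among the BALB/c libraries and the other 5 B6 libraries lay above all 6 of them. Vcan was called lower in BALB/c, with a log2 difference of -0.63 (limma, SE 0.15, adjusted p = 0.0148). Cspg4, which encodes the NG2 proteoglycan, ran from 2.24 to 5.28 TPM and was not called (log2 difference -0.24, 95% interval -0.53 to 0.06).

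Of the 4 genes of differentiating cells, 3 were called lower in BALB/c. Bcas1, which marks cells that have begun to myelinate, was at 265, 160.3 and 82.6 TPM in the B6 controls and at 136, 222 and 68.5 TPM under CRS in B6. The BALB/c libraries were at 42.0, 96.7 and 17.4 TPM in controls and 17.3, 47.7 and 37.6 TPM under CRS. BALB/c control 9 lay above B6 control 9 and B6 CRS 14, and the other 5 BALB/c libraries were below all B6 libraries. The log2 difference was -1.91 (SE 0.44, adjusted p = 0.0113, limma). Gpr17, a receptor present only briefly between precursor and mature cell, was at 23.9, 19.5 and 13.3 TPM in the B6 controls and 15.1, 15.9 and 16.5 TPM under CRS in B6, against 9.22, 9.77 and 11.8 TPM in BALB/c controls and 7.73, 11.4 and 11.5 TPM under CRS in BALB/c. All 6 BALB/c libraries lay below all 6 B6 libraries. Its log2 difference was -0.70 (SE 0.14, adjusted p = 0.00597, limma). Enpp6, a choline phosphodiesterase of newly formed oligodendrocytes, was called at -1.44, though not without BALB/c CRS 12, and had the widest spread of all members, 31.3-fold between the highest and lowest library. Itpr2, an intracellular calcium channel, had a log2 difference of -0.33 and was not called (adjusted p = 0.0957, limma).

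All 5 transcription factors were called lower in BALB/c. Olig1 (chr16:91269769-91271939), which acts from the precursor stage on, was at 141, 97.5 and 69.9 TPM in the B6 controls and 91.4, 107 and 79.5 TPM under CRS in B6, and at 59.7, 65.7 and 50.0 TPM in BALB/c controls and 44.2, 60.5 and 68.2 TPM under CRS in BALB/c. Sox10 (chr15:79154913-79164490), which drives myelin genes directly, was at 48.9, 37.3 and 21.0 TPM in the B6 controls and 28.7, 41.3 and 22.7 TPM under CRS in B6. In BALB/c it was at 10.4, 17.0 and 7.80 TPM in controls and 7.97, 13.5 and 13.5 TPM under CRS. For both genes every BALB/c library lay below every B6 library. The log2 difference was -0.72 for Olig1 (SE 0.16, adjusted p = 0.0110, limma) and -1.42 for Sox10 (SE 0.24, adjusted p = 0.00203, limma). Myrf, which is switched on at the end of differentiation, had a log2 difference of -1.49, Nkx6-2, found in mature cells, -1.30, and Olig2, which specifies the lineage, -0.71. The strains overlapped in these last 3 genes. Nkx6-2 was close to the threshold (adjusted p = 0.0433, limma) and was not called under median-of-ratios scaling or without BALB/c CRS 12.

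**Figure D2:**
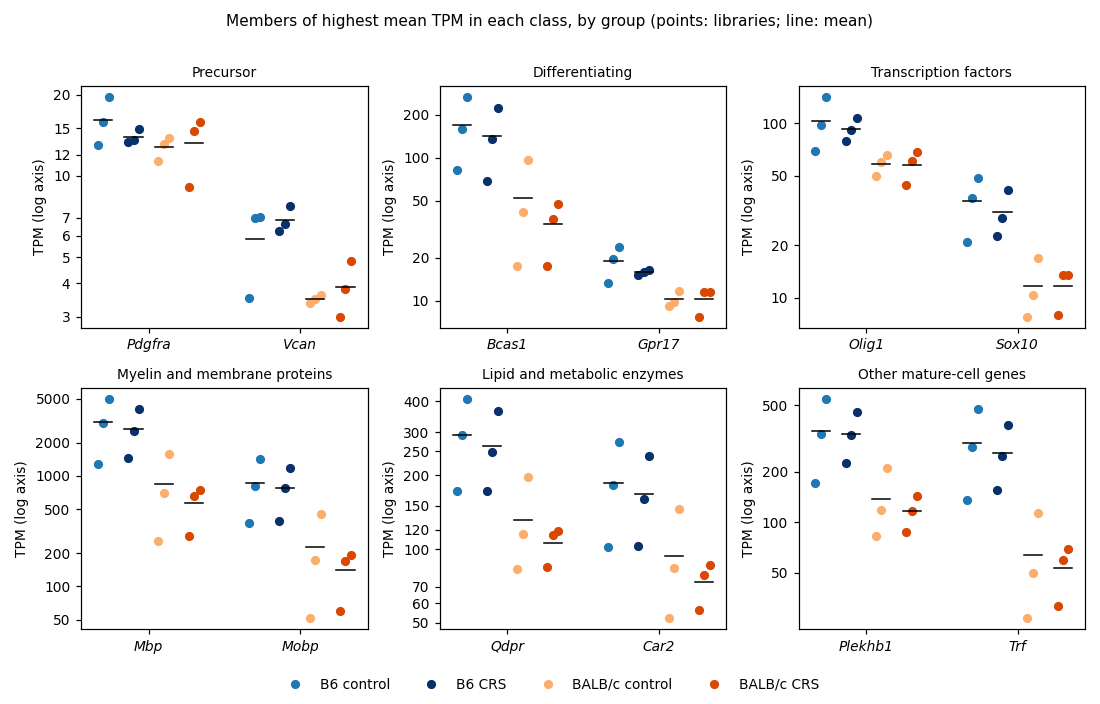
TPM of the 2 most abundant members of each class in the 12 libraries (log axes), with 1 point per library and a line at the group mean. In Gpr17, Olig1, Sox10 and Trf all BALB/c points are below all B6 points, whereas the points for Pdgfra overlap across the 4 groups.

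All 12 myelin and membrane protein genes were called lower in BALB/c, with a median log2 difference of -2.19. Mbp, whose product glues the cytoplasmic faces of myelin together, was at 5002, 3024 and 1287 TPM in the B6 controls and 2547, 4024 and 1448 TPM under CRS in B6. The BALB/c libraries were at 696, 1584 and 257 TPM in controls and 284, 749.6 and 658 TPM under CRS. The ratio of group means was 3.67 in controls and 4.74 under CRS, but BALB/c control 9 lay above B6 control 9 and B6 CRS 14. The log2 difference was -2.14 (SE 0.46, adjusted p = 0.0086, limma). Mbp alone took 0.5% of all TPM in B6 control 2 and 0.0257% in BALB/c control 10. Mobp (chr9:120149742-120181488), a small basic protein of compact myelin whose promoter with 6 SOX words is printed above, was at 1429, 809.6 and 374 TPM in the B6 controls and 770.2, 1172 and 390.0 TPM under CRS in B6. In BALB/c it was at 175, 456 and 51.8 TPM in controls and 59.6, 194 and 169.7 TPM under CRS, again with control 9 inside the B6 range. Its log2 difference was -2.35 (SE 0.52, adjusted p = 0.00964, limma).

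The largest falls among all members were also in this class. Mal, a membrane-sorting protein of myelin, had a log2 difference of -2.48 (limma, SE 0.47, adjusted p = 0.00423), and ran from 78.6 to 320.5 TPM in the 6 B6 libraries and from 12.6 to 88.3 TPM in the 6 BALB/c libraries. Opalin, a membrane glycoprotein specific to central myelin, had a log2 difference of -2.33 (limma, SE 0.41, adjusted p = 0.0025), with 10.9 to 46.7 TPM in B6 and 1.50 to 11.2 TPM in BALB/c. Each overlapped between strains only through BALB/c control 9 and B6 CRS 14. The adhesion protein Mag (-2.31), the surface antigen Mog (-2.26) and the tight junction protein Cldn11 (-2.24) had differences of like size. They were followed by Tspan2 (-1.81), a tetraspanin, Cnp (-1.80), an enzyme of non-compact myelin, Ermn (-1.63), which shapes the cytoskeleton, Pllp (-1.57), a membrane raft protein, and Gjb1 (-1.42), a gap junction protein. Ermn and Gjb1 were not called without BALB/c CRS 12, which left 10 of the 12. Of these 12 genes, only Pllp had all 6 BALB/c libraries below all 6 B6 libraries.

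Of 6 enzymes of myelin lipid and of oligodendrocyte metabolism, 5 were called lower in BALB/c. Qdpr (chr5:45434032-45450229), which regenerates tetrahydrobiopterin, was at 411, 292 and 172 TPM in the B6 controls and 248, 367 and 172 TPM under CRS in B6, against 115, 196 and 82.7 TPM in BALB/c controls and 84.2, 118 and 114 TPM under CRS in BALB/c. Car2, the carbonic anhydrase of oligodendrocytes, was at 274, 183 and 102 TPM in the B6 controls and 160.3, 239 and 103 TPM under CRS in B6. The BALB/c libraries were at 83.6, 146 and 52.3 TPM in controls and 56.2, 86.3 and 78.2 TPM under CRS. In both genes BALB/c control 9 was the single library inside the B6 range. The log2 difference was -1.20 for Qdpr (SE 0.26, adjusted p = 0.00813, limma) and -1.05 for Car2 (SE 0.29, adjusted p = 0.0281, limma). Fa2h, which hydroxylates the fatty acids of myelin lipids, was called at -1.96, Aspa, which splits N-acetylaspartate, at -1.34, and Gal3st1, which makes sulfatide, at -0.76. Without BALB/c CRS 12, Car2 and Aspa were not called, which left 3 of the 6, and Car2 was not called under median-of-ratios scaling either. Ugt8a, which makes galactosylceramide, had a log2 difference of -1.12 and was not called (adjusted p = 0.0708, limma).

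Among the other genes of mature cells, all 7 were called lower in BALB/c. Plekhb1 (chr7:100643896-100662394), a membrane-associated protein, was at 548, 338 and 171 TPM in the B6 controls and 334, 453 and 226 TPM under CRS in B6, and at 118, 212 and 82.8 TPM in BALB/c controls and 88.2, 144 and 117 TPM under CRS in BALB/c. Trf (chr9:103208876-103230286), which encodes the iron carrier transferrin, was at 473, 282 and 136 TPM in the B6 controls and 248, 379 and 155 TPM under CRS in B6. In BALB/c it was at 49.9, 114 and 26.9 TPM in controls and 31.6, 59.6 and 69.6 TPM under CRS. BALB/c control 9 exceeded B6 control 9 in Plekhb1, whereas in Trf every BALB/c library lay below every B6 library. The log2 difference was -1.40 for Plekhb1 (SE 0.30, adjusted p = 0.00763, limma) and -2.26 for Trf (SE 0.39, adjusted p = 0.00214, limma). Apod, a lipid-binding secreted protein (-1.42), likewise did not overlap. Hapln2, a matrix link protein of nodes of Ranvier (-1.69), the receptor Gpr37 (-1.36), the membrane protein Tmem125 (-1.29) and the lysophosphatidic acid receptor Lpar1 (-1.18) did. Gpr37, Tmem125 and Lpar1 were not called without BALB/c CRS 12, which left 4 of the 7, and Lpar1 was not called under median-of-ratios scaling either.

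In all, 6 of the 37 members had every BALB/c library below every B6 library: Gpr17, Sox10, Olig1, Pllp, Trf and Apod. They were 16.2% of the members, against 6.94% of all tested genes with BALB/c below in this way. The share of lower genes among all calls depended on scaling, at 78% on TPM and 53.5% after median-of-ratios scaling. The scaling moved the median of all genes in controls from -0.10 to 0.01. Under that scaling all 37 members kept a negative averaged difference, 30 of them called, and their median was -1.33.

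In control mice alone, the strain difference had the same sign in all 37 members, but few passed the test. Called lower in BALB/c were 5 members, Gpr17, Sox10, Opalin, Trf and Apod, where 3.37% of all genes were called lower and 4.73% in either direction. The median over the members was -1.35. Apod had a log2 difference of -1.72 (limma, SE 0.34, adjusted p = 0.0127), Trf of -2.27 (limma, SE 0.55, adjusted p = 0.0341) and Opalin of -2.39 (limma, SE 0.58, adjusted p = 0.0351). Apod was at 314, 251 and 133 TPM in the B6 controls and 51.6, 90.5 and 60.8 TPM in BALB/c controls, a ratio of means of 3.44. The groups did not overlap in 12 of 37 members (32.4%), all lower in BALB/c, against 18.7% of all genes with BALB/c below in this way. BALB/c control 9 often reached into the B6 range, and it lay above B6 control 9 in 23 of 37 members. The striatal marker sum moved alongside: it was 365 TPM in BALB/c control 9, 205 TPM in B6 control 9 and 110 TPM in BALB/c control 10.

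These 5 calls were sensitive to single libraries. No member was called without B6 control 2, B6 control 3, BALB/c control 5 or BALB/c control 10. By contrast, 24 were called without B6 control 9, 15 without BALB/c control 9, and 3 without BALB/c CRS 13 or without BALB/c CRS 15. Under median-of-ratios scaling and under either marker covariate, Apod was the 1 member called. Of all genes, 3.15% were called under the striatal and 3.81% under the excitatory covariate, so 1 of 37 does not stand out from these shares. Apod was not called under either covariate in the averaged difference or under CRS. With the striatal covariate the log2 difference of Apod was -1.16 (adjusted p = 0.0321, limma), and with the excitatory covariate it was -1.36 (adjusted p = 0.0221, limma).

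Under CRS the strains did not overlap in most members. The 3 BALB/c libraries lay below the 3 B6 libraries in 32 of 37 members, against 20% of all genes, and the 5 that overlapped were Pdgfra, Cspg4, Itpr2, Ugt8a and Lpar1. Because most members order the libraries alike, the 32 are not independent separations. Called lower in BALB/c were 7 members, Sox10, Mal, Opalin, Pllp, Tspan2, Trf and Hapln2, where 5.33% of all genes were called lower and 7.7% in either direction. The members' median was -1.50. Mal had a log2 difference of -2.55 (limma, SE 0.67, adjusted p = 0.0392), Opalin of -2.27 (limma, SE 0.58, adjusted p = 0.0344) and Trf of -2.24 (limma, SE 0.55, adjusted p = 0.0292). Mal was at 180.5, 271 and 78.6 TPM in the B6 libraries and 14.2, 38.7 and 31.5 TPM in the BALB/c libraries. Mbp missed the threshold (log2 difference -2.24, adjusted p = 0.0585, limma) although its groups did not overlap.

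The striatal markers were separated in the same direction under CRS, with 7 of 8 called lower and a median of -3.15. Their sum was 867 to 2265 TPM in B6 and 131 to 178 TPM in BALB/c, so this covariate and the strain cannot be told apart here. With the striatal covariate 0 members were called, against 1.46% of all genes, and with the excitatory covariate 0, against 2.14%. With the striatal covariate the members' median went from -1.50 to -0.029, 21 of 37 stayed negative, and Mbp was at -0.18. With the excitatory covariate the median was -0.49, 36 were negative, and Mbp was at -0.999. Without BALB/c CRS 12, BALB/c CRS 13, B6 CRS 12 or B6 CRS 13 the count was 0, and it was 1 without BALB/c CRS 15 or BALB/c control 5 and 3 without B6 control 3. It was 15 without BALB/c control 9 or 10, 18 without B6 control 2 and 25 without B6 control 9. Median-of-ratios scaling gave 4. Whether the strain difference itself differed between control and CRS is the interaction given below, in which no member passed.

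Within groups, the mature-cell genes varied together from library to library. The 25 genes of the myelin, lipid and other mature classes were all highest in B6 control 2 and all second highest in B6 CRS 13. All 25 had BALB/c control 10 among their lowest 2 libraries, and 24 had BALB/c CRS 12 there. Their summed level was 10650, 6591 and 2999 TPM in the B6 controls 2, 3 and 9, and 5761, 8735 and 3294 TPM in B6 CRS 12, 13 and 14. In BALB/c it was 1595, 3521 and 759.8 TPM in controls 5, 9 and 10, and 838, 1839 and 1653 TPM in CRS 12, 13 and 15. The 3 libraries of a group thus differed widely in this sum, and BALB/c control 9 lay above B6 control 9 and B6 CRS 14.

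**Figure D3:**
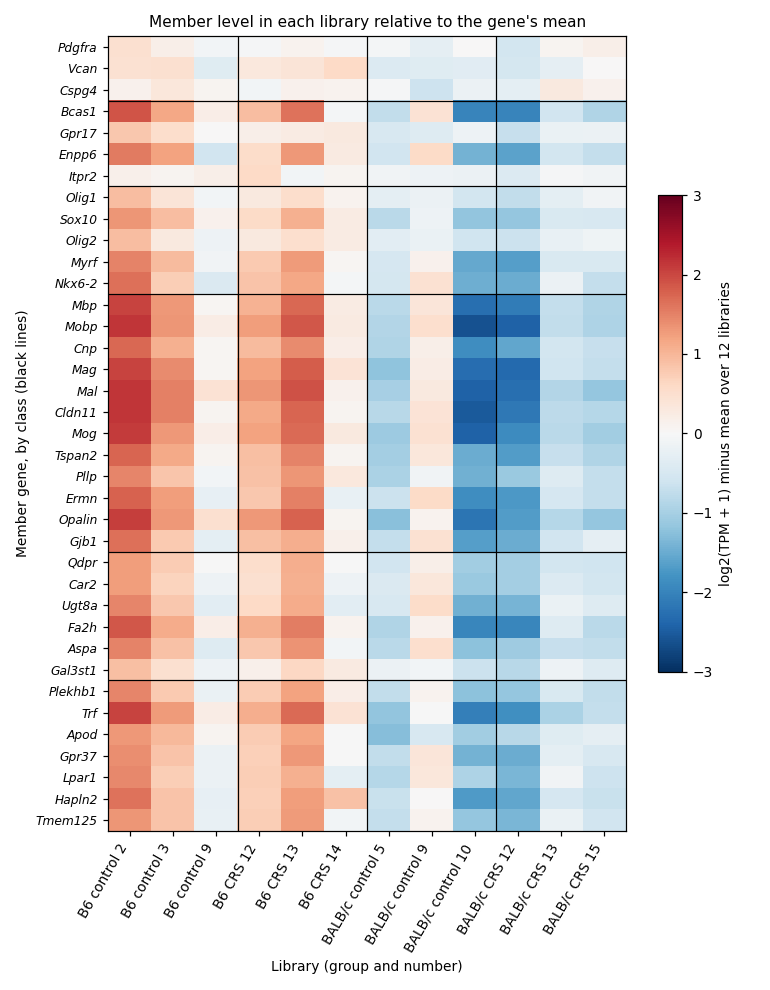
Level of each member in each library as log2(TPM + 1) minus the gene's mean over the 12 libraries, with red above and blue below the mean. The 25 mature-cell genes form columns of 1 colour, reddest in B6 control 2 and bluest in BALB/c control 10 and BALB/c CRS 12, and the precursor rows at the top stay pale.

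The precursor genes did not share this range. The ratio of the highest to the lowest library was 2.15 in Pdgfra and at most 2.58 in the precursor class, 3.18 to 12.5 in the transcription factors, and 8.19 to 31.1 in the myelin protein class. The summed precursor level was 20.8 to 31.0 TPM in B6 controls, 23.5 to 25.9 TPM under CRS in B6, 17.1 to 20.8 TPM in BALB/c controls and 15.2 to 25.1 TPM under CRS in BALB/c. The library with the lowest mature sum, BALB/c control 10, had a precursor sum of 20.8 TPM, as did B6 control 9.

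The spread of the mature genes ran partly alongside the striatal markers. The striatal sum was also highest in B6 control 2, at 2769 TPM, and lowest in BALB/c control 10, at 110 TPM. The order was not identical: B6 control 3 had the third highest mature sum with a striatal sum of 427.5 TPM, below all B6 CRS libraries. B6 CRS 12 had a higher striatal sum than B6 CRS 13, 2265 against 1671 TPM, but a lower mature sum. BALB/c control 9 had a higher mature sum than B6 CRS 14, with a striatal sum of 365 against 867 TPM. The excitatory marker sum ran from 1235 TPM in B6 control 2 to 2554 TPM in B6 control 9. The part of these markers in the library spread was not tested further than by the covariate fits above.

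**Figure D4:**
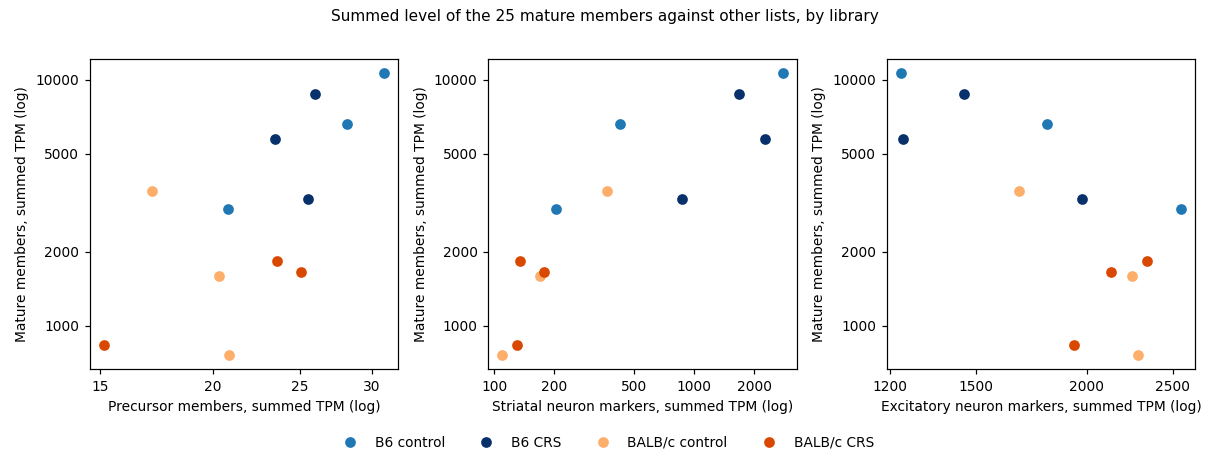
Summed TPM of the 25 mature-cell genes in each library against the summed TPM of the 3 precursor genes, of 8 striatal neuron markers and of 8 excitatory neuron markers (log axes, 1 point per library). B6 control 2 has the highest mature and striatal sums, 10650 and 2769 TPM, and BALB/c control 10 the lowest, 759.8 and 110 TPM.

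Set against Mbp in the same library, most members overlapped between strains, but an overlap does not mean that a proportion was kept. As a percentage of the Mbp level, 28 of the other 36 members overlapped, 8 were higher in every BALB/c library and 0 were lower in every one. The 8 were Nkx6-2, Ermn, Gjb1, Ugt8a, Aspa, Car2, Gpr37 and Lpar1. Ugt8a, the galactosylceramide synthase, was 0.987% to 1.11% of Mbp in B6 and 1.69% to 2.35% in BALB/c. Car2 was 5.47% to 7.92% of Mbp in B6 and 9.19% to 20.4% in BALB/c. Mog, by comparison, was 2.54% to 2.82% in B6 and 1.91% to 2.69% in BALB/c. Plekhb1 was 10.95% to 15.58% in B6 and 13.4% to 32.28% in BALB/c, and overlapped only through BALB/c control 9. Mal was shifted the other way, with 5.432% to 7.515% in B6 and 4.794% to 5.574% in BALB/c. These percentages are descriptions without a test, and a low Mbp level raises all of them. Mbp itself had an averaged log2 difference of -2.14, so a gene with a smaller fall rises on this scale. No share of all genes is given for these counts.

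No member was called for CRS in either strain. In B6, 0 of 37 members were called, as were 0% of all genes, and 0 had an unadjusted p under 0.05 (limma). The median log2 difference was -0.10, with 30 members negative, and no member had its 3 CRS libraries outside the range of its controls, where 8.33% of all genes did. The intervals were wide for the myelin genes: Mbp had a log2 difference of -0.13 (95% interval -1.56 to 1.30) and Mobp of -0.10 (95% interval -1.71 to 1.51). They were narrower for Pdgfra, at -0.18 (95% interval -0.60 to 0.24). The lowest p-values, none significant, belonged to Vcan (0.25) and Hapln2 (0.21), which were higher after CRS, and to Gpr17 (-0.21) and Pdgfra, which were lower, all with an adjusted p of 1 (limma). Hapln2 turned to -0.29 and Vcan to -0.026 without B6 control 9. The 8 striatal markers all had positive differences in this comparison (median 1.21), with 0 called.

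In BALB/c, 0 of 37 members were called for CRS, where 0.00609% of all genes were, and 0 had an unadjusted p under 0.05 (limma). No member was separated between the groups, against 7.39% of all genes. The median was -0.15, with 30 members negative. Mbp had a log2 difference of -0.34 (95% interval -1.77 to 1.09). The members of lowest p were Cspg4 (0.32) and Apod (0.45), which were higher after CRS, and Enpp6 (-0.49) and Tspan2 (-0.37), which were lower, all with an adjusted p of 1 (limma). Without BALB/c control 9, which is high in both genes, Enpp6 was at 0.043 and Tspan2 at 0.16. Without BALB/c CRS 12, 0 members were called, and Cspg4 was at 0.49, Apod at 0.62, Enpp6 at -0.17 and Tspan2 at -0.070.

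Averaged over the strains, 0 members were called for CRS, 0 had an unadjusted p under 0.05, and 0.00609% of all genes were called (limma). The median was -0.11, and Mbp had a log2 difference of -0.23 (95% interval -1.25 to 0.78). The members of lowest p were Vcan (0.17), Cspg4 (0.09), Gpr17 (-0.11) and Tspan2 (-0.27), with adjusted p-values of 0.967 to 0.984 (limma).

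**Figure D5:**
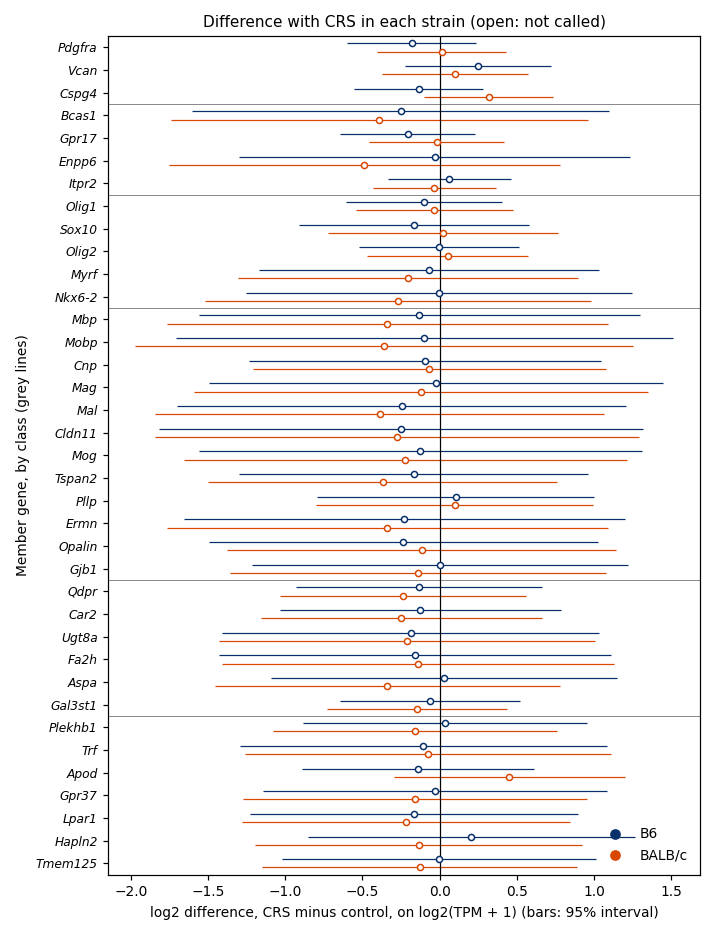
Difference with CRS, CRS minus control on the log2(TPM + 1) scale, for each of the 37 genes in B6 (blue) and BALB/c (orange), with 95% intervals from limma. Every interval includes 0, and the interval of Mbp in B6, -1.56 to 1.30, is wider than that of Pdgfra, -0.60 to 0.24.

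The response to CRS was not shown to differ between strains. For the interaction, the CRS effect in BALB/c minus that in B6, 0 of 37 members were called, 0% of all genes were called, and 0 members had an unadjusted p under 0.05 (limma). The members of lowest p were Cspg4 (0.45, 95% interval -0.14 to 1.04) and Apod (0.59, 95% interval -0.47 to 1.66), with a more positive effect in BALB/c. They also included Enpp6 (-0.45, 95% interval -2.25 to 1.34) and Aspa (-0.37, 95% interval -1.95 to 1.21), with a more negative effect. All had an adjusted p of 1.00 (limma). For Mbp the difference was -0.21 (95% interval -2.23 to 1.82), and for the striatal markers the median was -1.54 with 0 of 8 called.

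Another 39 oligodendrocyte genes were mostly lower in BALB/c too. They were chosen with earlier results of these data known and were measured in the same 12 libraries, so they give no independent support. Averaged over treatment, 27 were called lower in BALB/c, against 14.3% of all genes, and 0 higher, with a median log2 difference of -1.06. Of 26 further genes of mature cells 21 were called lower, of 5 further genes of differentiating cells 4, and of 8 further precursor genes 2. Cryab, a small heat shock protein, had a log2 difference of -1.23 (adjusted p = 0.0160, limma), whereas Tppp, which stabilises microtubules, was not called (95% interval -0.21 to 0.20, adjusted p = 0.986, limma). In the further precursor list, Cacng4 was called at -0.93, Lhfpl3, named after its values were seen, at -0.84, and Tnr was not called (95% interval -0.30 to 0.31). With the striatal covariate 1 of the 39 was called lower, and with the excitatory covariate 3. Of all genes, 3.23% and 5.27% were called in either direction under these covariates, so both counts lie near background. For CRS, 0 of the 39 were called in either strain, with 2 in B6 and 0 in BALB/c at an unadjusted p under 0.05 (limma). Among all 16423 tested genes, 792 in B6 and 497 in BALB/c were under that p.

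The remaining lists had medians between -0.48 and 0.38, and the called genes given here were named after their values were seen. Of all tested genes, 14.3% were called lower in BALB/c and 18.4% in either direction. Lists of 4 to 8 genes are too short to set a small count apart from these shares. Of 8 genes of cholesterol synthesis, which supplies the main lipid of myelin, 1 was called higher in BALB/c and 1 lower, with 5 of 8 positive and a list median of 0.079. The lower gene was Cyp51 (log2 difference -0.32, adjusted p = 0.0315, limma). Of 8 astrocyte markers, Aqp4 (-0.56), Gja1 (-0.44) and Aldoc (-0.44) were called lower, with a list median of -0.38. Of 8 microglial markers, 3 were called lower, among them C1qa (-0.28) and C1qb (-0.89), with a list median of -0.16, and of 6 endothelial markers 0 were called. Of 8 excitatory neuron markers, which mark cortical projection neurons, 3 were called higher, among them Neurod6 (0.78) and Cux2 (1.03), with a list median of 0.38. Of 6 inhibitory neuron markers, Gad1 (-0.50), Gad2 (-0.75) and Slc32a1 (-0.87) were called lower and Vip (0.58) higher, with a list median of -0.33. Of 4 tested choroid plexus markers, Folr1 (-0.79) and Clic6 (-1.18) were called lower, with a list median of -0.48.

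The member values are sums of transcript rows that carry only a gene name. Mbp, which has many splice forms, had 16 rows, and its leading row held 67.4% of its TPM, 68.6% in B6 and 62.5% in BALB/c. Mobp had 7 rows with 80.5% in the leading row, and Mag, which is made in a long and a short form, had 8 rows with 44.5% in the leading row. In 12 members an exon overlaps another gene in GENCODE M21, 10 of them on the opposite strand and 3 on the same strand. They include Gpr17 (with Lims2), Cnp (with Dnajc7), Tspan2 (with Tspan2os), Mobp (with Gm38642) and Trf (with Gm20425). The library kit keeps strand, but whether strand was used in quantification is not given in the sources used here, so these values are uncertain to that extent.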

How the data were processed

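RNA was sequenced from 12 libraries of mouse medial prefrontal cortex, prepared with a stranded mRNA kit and read as paired 150 bp ends to about 6 Gb each, per the labels' protocols. The authors deposited TPM values in 1 table of transcript rows with a gene name each. The unit was read from the values, since every column sums to 1000000 and the header names none. The submitters' processing notes name Salmon, cutadapt 2.9 and the build GRCm38, with no role or order; the annotation and the use of strand are not given in the sources used here. TPM keeps no depth, so no counting error can be given.

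Rows were summed by gene name, and a gene was tested where 3 or more libraries had 1 TPM or more. The test on log2(TPM + 1) was limma 3.58.1 in R 4.3.3 (group means, moderated with an intensity trend, 8 residual degrees of freedom before moderation). All 12 libraries, grouped by their labels, entered each of 7 contrasts. P-values were Benjamini-Hochberg adjusted over all tested genes, and a gene was called at an adjusted p under 0.05. A pseudocount of 1 understates differences of low genes. The test was checked on simulated data with independent noise for each gene, which does not represent members that vary together. Values in every library are given for the 2 most abundant members of each class, and statistics for the 3 largest called differences of a comparison or, with none called, the 2 lowest p-values in each direction. Members, classes and marker lists were chosen with earlier results of these data known. Promoters and positions are from RefSeq (GRCm38.p6), overlaps from GENCODE M21. Alternatives changed the pseudocount, filter, scaling, intensity trend, replicate block and single libraries. The striatal and excitatory marker covariates were chosen after seeing the data. Some called genes of the cholesterol, microglial and excitatory neuron lists are not reported here.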

Additional observations from a re-analysis of the deposited data

How the results depend on the processing

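The averaged strain difference gave 24 to 34 called members when single libraries were left out and 24 to 33 under the other settings of filter, scaling, pseudocount, trend and block, and 0 under the striatal or the excitatory marker covariate. In controls, where 5 were called, leaving out single libraries gave 0 to 24, leaving out the filter on low values gave 1, median-of-ratios scaling 1, removal of mitochondrial, Bc1 and ribosomal RNA 2, and each marker covariate 1. Under CRS, where 7 were called, the range over single libraries was 0 to 25, and these settings gave 0, 4 and 4, and 0 with each covariate. The share of lower genes among all calls went from 71.2% to 53.1% in controls and from 69.2% to 53.8% under CRS with median-of-ratios scaling. For CRS and the interaction, 0 members were called under every alternative run. Some uncalled differences changed sign. For CRS in B6, leaving out single libraries gave Vcan from -0.026 to 0.39 and Hapln2 from -0.29 to 0.65, with the lowest value of each without B6 control 9, and Hapln2 was at -0.41 with the striatal and -0.28 with the excitatory covariate. For CRS in BALB/c the ranges were -0.96 to 0.043 for Enpp6 and -0.75 to 0.16 for Tspan2, with the highest value of each without BALB/c control 9. In the interaction, the ranges were -0.93 to 0.20 for Enpp6 and -0.78 to 0.15 for Aspa; without control 9 of BALB/c they were at 0.075 and 0.14. With the striatal covariate they were at 0.49 and 0.56, and with the excitatory covariate at 0.11 and 0.24. The cause of these changes was not tested. Libraries of the 2 strains share the numbers 9, 12 and 13 but the labels tie nothing to them, and the deviations of same-numbered libraries from their group means correlated at -0.24, -0.029 and -0.036, so they were not treated as pairs. With the replicate block 6, 5 and 33 members were called in controls, under CRS and averaged, and Mal under CRS was at -2.50 (adjusted p = 0.051, limma). The intervals for CRS limit what can be seen: for Mbp in B6 they reach from -1.56 to 1.30.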

Other observations

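Il33, an alarmin cytokine found in the nuclei of oligodendrocytes and astrocytes, was singled out after its values were seen, among the further genes of mature cells. It was at 51.2, 31.1 and 16.8 TPM in the B6 controls 2, 3 and 9 and at 27.9, 37.2 and 17.5 TPM in B6 CRS 12, 13 and 14. In BALB/c it was at 3.56, 4.10 and 4.23 TPM in controls 5, 9 and 10 and at 3.58, 3.85 and 2.47 TPM in CRS 12, 13 and 15. In B6 its level followed the order of the myelin genes closely, with control 2 highest and control 9 and CRS 14 lowest, whereas in BALB/c it stayed near the same low level in every library, including control 9. The averaged log2 difference between strains was -2.66 (SE 0.24, adjusted p = 1.24e-05, limma). With the striatal covariate it was -1.81 (SE 0.25, adjusted p = 0.0013, limma) and with the excitatory covariate -2.10 (SE 0.25, adjusted p = 0.000311, limma), where 0 of the 37 members were called. Under CRS alone with the striatal covariate it was -1.54 (adjusted p = 0.0548, limma).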
